A study of Homo sapiens with 6 samples.

Results

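The 10 genes described here are transcription factors of the lung and airway lineage (SPDEF, FOXA1, FOXA2, NKX2-1, GATA6 and HNF4A), airway mucins (MUC1, MUC5AC and MUC5B) and the surfactant gene SFTPB. They were found by gene name among the 58735 genes of the deposited count and FPKM tables, and all 10 were present. The names were chosen with earlier results of the same comparison known, among them the higher level of SPDEF in OE_GPX3. Their differences between the groups are therefore given as a description with intervals, and not as an independent test. The study sequenced 6 libraries of A549, an established line from a human adenocarcinoma of the lung, of which 3 were titled Vector and 3 OE_GPX3. The labels give genotype and treatment as WT for the Vector libraries and as OE for the OE_GPX3 libraries. They name no dose, time, promoter or clone for the overexpression of GPX3, a secreted glutathione peroxidase, and no separate cultures for the replicates, and every p-value rests on the spread between libraries, which may be technical only.

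SPDEF is an ETS-family factor of mucous and goblet cells. FOXA1 and FOXA2 are forkhead pioneer factors that open chromatin in lung and other endoderm. NKX2-1 is the lineage factor of the distal lung and of many lung adenocarcinomas, and it drives surfactant genes together with forkhead and GATA factors. HNF4A is a nuclear receptor of liver and gut epithelium that is also expressed in lung adenocarcinomas of mucinous type, which commonly lack NKX2-1. MUC5AC and MUC5B encode the main gel-forming mucins of airway mucus, whereas MUC1 encodes a mucin anchored in the apical membrane.

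Total counts per library ranged from 15831693 to 18751815, and 14458 genes had enough counts to be tested. GPX3 was measured at 10.6 to 12.5 FPKM (the deposited values per kilobase of gene and per library depth) in Vector and at 327 to 432 FPKM in OE_GPX3, so the libraries carried the level of GPX3 their titles name. Between 97.2% and 97.7% of counts lay in protein-coding genes, although the labels describe a protocol that enriches small RNA. Mitochondrial genes took 6.81% to 7.52% of counts in Vector and 6.19% to 6.55% in OE_GPX3. The epithelial origin was visible in 6 of 6 markers (EPCAM, CDH1, KRT7, KRT8, KRT18 and KRT19), with a summed level of 5282 to 5817 FPKM in Vector and 5792 to 7837 FPKM in OE_GPX3. CDKN2A and CDKN2B, which A549 cells are known to have lost, had 1 and 0 counts over all 6 libraries. Endothelial markers summed to at most 0.227 FPKM and fibroblast markers to at most 0.748 FPKM. Leukocyte markers summed to 6.55 to 8.91 FPKM in Vector and 9.01 to 9.60 FPKM in OE_GPX3, almost wholly from CD14, with CD3D and MS4A1 at 0 in all libraries; the part of CD14 in any result was not tested.

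The promoters of the 3 members whose libraries did not overlap between the groups are shown. They were picked by that outcome, and a link between their letters and the differences was not tested. RefSeq windows on GRCh38.p14, from 250 bases before to 50 bases from a start site, were matched by symbol for 7 of the 10 genes, with 11 windows in all. FOXA2, MUC5AC and MUC5B had no entry. Both strands were searched for the forkhead letters TGTTTAC or TATTTAC, the GATA letters AGATAA or TGATAA, the ETS letters CGGAAG or AGGATG, the HNF4 letters CAAAGTCCA, the NKX2 letters CAAGTG and the TATA letters TATAAA. Capitals mark each match on either strand, and all sequences run 5′ to 3′ on the strand of the gene. The SPDEF window lies at chr6:34556280-34556579 on the minus strand. HNF4A has a distal window at chr20:44355449-44355748 and a proximal window at chr20:44400989-44401288, both on the plus strand. MUC1 has 2 windows on the minus strand that overlap almost wholly, and the one at chr1:155192866-155193165 is printed.
SPDEF: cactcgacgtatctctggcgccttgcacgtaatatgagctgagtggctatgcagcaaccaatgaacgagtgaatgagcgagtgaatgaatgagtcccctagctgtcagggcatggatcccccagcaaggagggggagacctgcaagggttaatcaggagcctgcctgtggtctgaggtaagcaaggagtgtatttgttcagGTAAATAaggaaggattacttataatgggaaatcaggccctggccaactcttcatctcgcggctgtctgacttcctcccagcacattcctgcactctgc
HNF4A distal: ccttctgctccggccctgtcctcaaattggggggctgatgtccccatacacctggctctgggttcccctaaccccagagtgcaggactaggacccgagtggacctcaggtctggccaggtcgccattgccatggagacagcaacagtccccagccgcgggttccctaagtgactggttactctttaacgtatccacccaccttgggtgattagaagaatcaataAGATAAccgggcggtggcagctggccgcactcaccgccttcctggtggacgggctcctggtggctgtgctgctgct
HNF4A proximal: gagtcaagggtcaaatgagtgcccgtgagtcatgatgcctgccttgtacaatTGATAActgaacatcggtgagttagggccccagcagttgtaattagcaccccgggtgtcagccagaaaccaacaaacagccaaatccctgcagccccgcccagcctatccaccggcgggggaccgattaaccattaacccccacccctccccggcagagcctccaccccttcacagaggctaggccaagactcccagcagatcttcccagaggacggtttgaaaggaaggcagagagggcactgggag
MUC1: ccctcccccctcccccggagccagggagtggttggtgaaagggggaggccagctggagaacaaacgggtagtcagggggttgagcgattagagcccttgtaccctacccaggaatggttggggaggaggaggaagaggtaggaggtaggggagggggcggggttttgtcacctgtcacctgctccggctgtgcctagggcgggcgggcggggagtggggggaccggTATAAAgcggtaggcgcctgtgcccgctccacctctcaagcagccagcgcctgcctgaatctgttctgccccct

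In the SPDEF window a reverse forkhead match lay at positions -49 to -43 from the start site. Forkhead letters were present in 5.97% of the 35116 RefSeq promoter windows. The distal HNF4A window held a GATA match at -26 to -21. The proximal HNF4A window held a GATA match at -198 to -193. GATA letters were present in 16.3% of all windows. The MUC1 window held TATAAA at -24 to -19 (-30 to -25 from the start of its other window), letters found in 11.5% of all windows. Of the members not printed, FOXA1 held a reverse NKX2 match (11.5% of all windows), and 1 of the 2 NKX2-1 windows held forkhead, GATA and NKX2 matches. GATA6 and SFTPB held none of these letters. ETS letters were in 31.97% and HNF4 letters in 0.384% of all windows, and in 0 of the 11 windows of the members. A match describes letters only, and its absence says nothing of the factor.

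Per gene length, the members spanned a wide range of levels in A549 cells. MUC5B stood highest, at a mean of 47.2 FPKM over the 6 libraries, and 95.7% of the 19951 protein-coding genes lay at or below it. SPDEF (23.6 FPKM) and FOXA2 (20.3 FPKM) followed, and their order differed by group. In Vector FOXA2 was above SPDEF in 3 of 3 libraries, at 21.02 ± 1.52 against 19.1 ± 0.850 FPKM (SD, n = 3 each). In OE_GPX3 SPDEF was above FOXA2 in 3 of 3, at 28.1 ± 0.431 against 19.5 ± 2.66 FPKM. SPDEF lay below MUC5B in 6 of 6 libraries. A second group of 4 genes lay lower, with FOXA1 at 9.31, MUC5AC at 9.21, HNF4A at 7.81 and MUC1 at 7.02 FPKM, and the ranges of each neighbouring pair overlapped. FOXA2 stood above FOXA1 in 6 of 6 libraries. GATA6 came next at 1.44 FPKM, below MUC1 in every library.

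**Figure D1:**
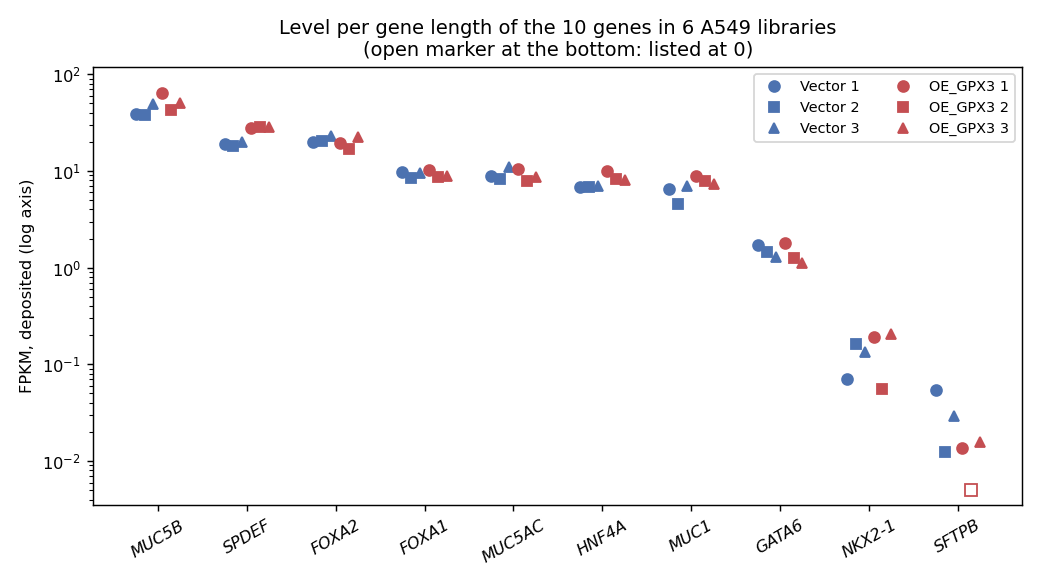
Deposited FPKM on a log axis (vertical) for the 10 genes, ordered by mean level (horizontal), with 1 point per library. MUC5B is highest at 37.9 to 64.1 FPKM, 4 genes lie together between 4.57 and 11.1 FPKM, and NKX2-1 and SFTPB lie at or below 0.206 FPKM; SFTPB in OE_GPX3 2 is listed at 0 and drawn as an open marker.

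NKX2-1 and SFTPB were at the limit of detection. NKX2-1 (ENSG00000136352, chr14:36516392-36521149, minus strand) had 4, 10 and 7 counts in Vector and 11, 3 and 10 in OE_GPX3, at most 0.206 FPKM in any library. SFTPB (ENSG00000168878, chr2:85657314-85668741, minus strand), whose product spreads surfactant lipid in the alveolus, had 4, 1 and 2 counts in Vector and 1, 0 and 1 in OE_GPX3. Its 0 in OE_GPX3 2 allows up to 3 counts, or 0.0432 FPKM, and covers counting error only. Neither gene passed the filter on low counts, so 8 of the 10 members entered the fit, and no fold is given for these 2. SFTA3, the gene beside NKX2-1, had 0 counts in all libraries, while NKX2-8, the next protein-coding neighbour on its other side, had 138, 170 and 142 counts in Vector and 121, 104 and 149 in OE_GPX3.

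Among the tested members, 1 passed the threshold of an adjusted p of 0.05 in edgeR's quasi-likelihood test (SPDEF, higher in OE_GPX3), 0 passed as lower and 7 did not pass. The background for these counts is 0.263% of the 14458 genes called in either direction, 0.0968% as higher and 0.166% as lower. In DESeq2, which called 0.842% of its genes as higher, SPDEF was again the 1 member called. For 3 members, SPDEF, HNF4A and MUC1, every OE_GPX3 library lay above every Vector library, against 8.62% of all genes. No member was lower without overlap, against 9.9% of all genes. As the members were chosen on this comparison, nothing is read from these shares. In bulk libraries a change in the number of cells that express a gene and a change in RNA per cell cannot be told apart.

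A trend with base composition ran through the whole comparison and touches the GC-rich members. The median log2 fold change of genes under 40% GC was -0.19, and that of genes of at least 60% GC was 0.16. SPDEF (64.6% GC), MUC1 (71.2%), MUC5B (64.5%), NKX2-1 (60.6%) and MUC5AC (60.3%) are in the second class. Fold changes of members and list genes are therefore given with and without a correction of each library's counts for their trend on GC content, whereas those of neighbouring genes are given without it. After the correction 0.0277% of genes, and 0 of the members, passed the threshold in edgeR.

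**Figure D2:**
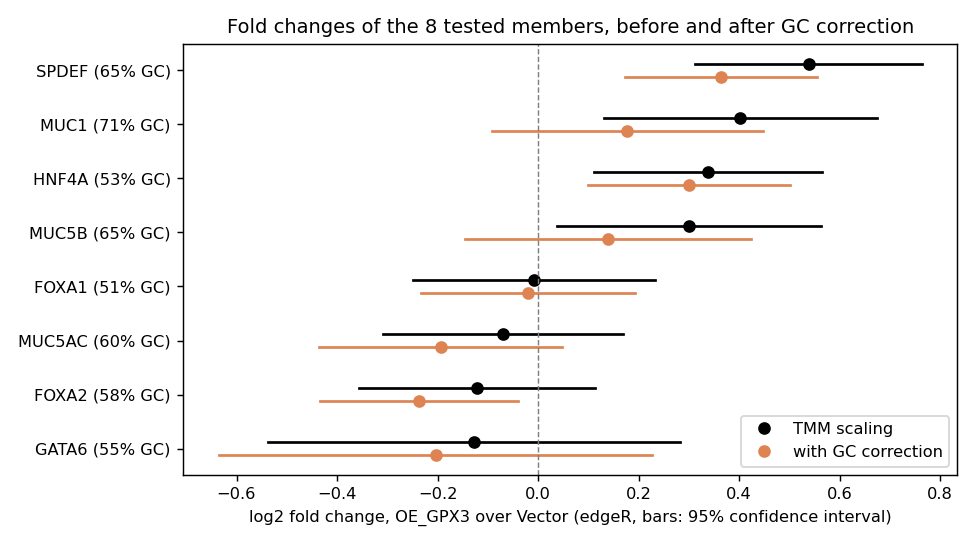
Log2 fold change of OE_GPX3 over Vector from edgeR (horizontal) for the 8 tested members (vertical, with GC content of the gene), before (black) and after (orange) GC correction; bars are 95% confidence intervals. SPDEF and HNF4A have intervals above 0 in both, whereas those of MUC1 and MUC5B take in 0 after correction. The interval of FOXA2 takes in 0 before correction and lies below 0 after it (-0.43 to -0.04).

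SPDEF (ENSG00000124664, chr6:34537802-34556333, minus strand) was measured at 37.4, 35.4 and 38.5 CPM (counts scaled to library size with TMM factors) in the Vector libraries and at 53.3, 54.2 and 54.0 CPM in the OE_GPX3 libraries. The groups did not overlap, at 37.1 ± 1.55 CPM against 53.8 ± 0.485 CPM (SD, n = 3 each). The SD in OE_GPX3 is smaller than counting error alone would give on its 950, 918 and 833 counts. It is therefore no measure of the variation between replicates. The level was 1.45-fold higher in OE_GPX3, a log2 fold change of 0.54 (SE 0.11, 95% confidence interval 0.31 to 0.76). After GC correction it was 0.36 (0.17 to 0.55). The log2 fold change lay between 0.36 and 0.58 over all settings tried, and SPDEF passed the threshold in 11 of 19 alternatives. It did not pass with GC correction (0.36 with or without a replicate block), in the 3 limma fits on FPKM (0.53 to 0.55), or without Vector 2 (0.51), OE_GPX3 2 (0.54) or OE_GPX3 3 (0.55). No stretch of 50 bases in its longest transcript occurred in another gene. The nearest protein-coding genes on either side, PACSIN1 and C6orf106, each had a log2 fold change of 0.08 (edgeR adjusted p = 0.943 and 0.753).

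HNF4A (ENSG00000101076, chr20:44355700-44434596, plus strand) was at 50.6, 50.8 and 50.9 CPM in Vector and at 72.9, 60.3 and 59.4 CPM in OE_GPX3. The Vector libraries lay closer together than counting error alone would place them on their 897, 987 and 832 counts. Their closeness is therefore no measure of the variation between replicates. OE_GPX3 1 was the highest by a wide margin. The log2 fold change was 0.34 (SE 0.11, 0.11 to 0.57), or 1.26-fold, and 0.30 (0.10 to 0.50) after GC correction. It lay above 0 in all settings tried, between 0.24 and 0.40, and passed the threshold in none of the 19 alternatives. The promoter windows above belong to separate start sites of the gene, and the gene-level counts do not divide reads between them.

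The forkhead factors and GATA6 did not pass the threshold. FOXA1 (ENSG00000129514, chr14:37589984-37596059, minus strand) was at 33.9 to 39.8 CPM in Vector and 34.8 to 41.2 CPM in OE_GPX3, and its log2 fold change was -0.01 (-0.25 to 0.23), and -0.02 (-0.23 to 0.19) after GC correction. Its direction turned with the setting, as given in the closing section. FOXA2 (ENSG00000125798, chr20:22581005-22585455, minus strand) was at 52.8, 53.6 and 59.6 CPM in Vector and at 50.5, 44.3 and 57.9 CPM in OE_GPX3. The groups overlapped, with a log2 fold change of -0.12 (-0.36 to 0.11), and -0.24 (-0.43 to -0.04) after GC correction. The FOXA2 value was -0.02 without OE_GPX3 2, -0.05 without Vector 3 and -0.21 without OE_GPX3 3. GATA6 (ENSG00000141448, chr18:22169443-22202528, plus strand), a zinc-finger factor of endoderm, had 123, 114 and 84 counts in Vector and 127, 83 and 67 in OE_GPX3. At this depth its interval was the widest of the tested members, a log2 fold change of -0.13 (-0.54 to 0.28), and -0.20 (-0.64 to 0.23) after GC correction. Leaving out 1 library moved it between -0.37 (without OE_GPX3 1) and 0.02 (without OE_GPX3 3). FOXA1 overlaps TTC6 on the other strand, and GATA6 overlaps GATA6-AS1. No source used here gives the strand setting of the counting. TTC6 had 12 to 20 counts per library and GATA6-AS1 4 to 10. AL121722.1 overlaps FOXA2 on the same strand and had 0 counts in all libraries, as did AL713999.1, which overlaps MUC1.

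**Figure D3:**
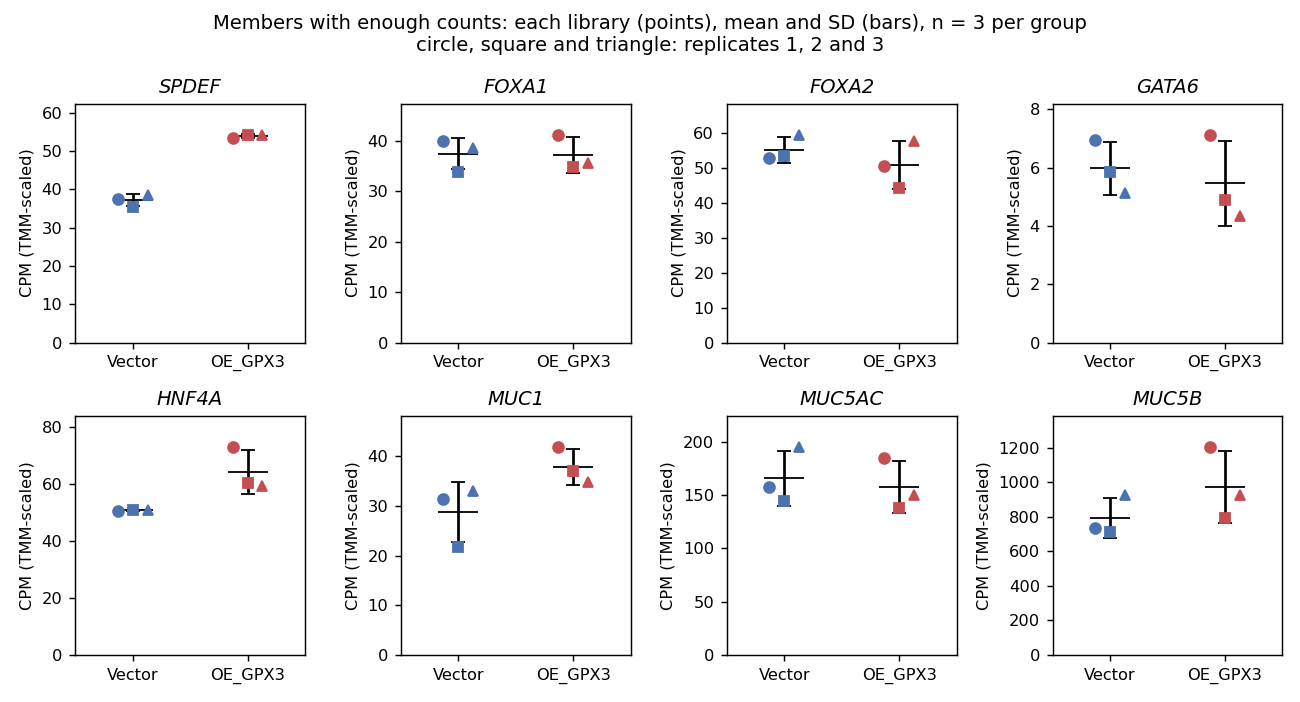
TMM-scaled CPM (vertical, from 0) of the 8 tested members in each Vector and OE_GPX3 library (circles, squares and triangles for replicates 1, 2 and 3), with the mean and SD of 3 libraries as bars. The groups are apart for SPDEF (35.4 to 38.5 against 53.3 to 54.2), HNF4A and MUC1, and overlap for the other 5 genes.

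Of the mucins, MUC1 (ENSG00000185499, chr1:155185824-155192916, minus strand) was at 31.4, 21.8 and 33.0 CPM in Vector and at 41.8, 37.1 and 34.8 CPM in OE_GPX3. Vector 2 was the lowest library, and the gap between the highest Vector and the lowest OE_GPX3 library was small. The log2 fold change was 0.40 (SE 0.13, 0.13 to 0.67), or 1.32-fold, and 0.18 (-0.09 to 0.45) after GC correction. MUC1 did not pass the threshold in any setting tried, and its log2 fold change ranged from 0.18 to 0.53, with 0.24 when Vector 2 was left out. Repeats fill this gene, and 42.4% of the 50-base stretches of its longest transcript occur there more than once, though none occurs in another gene. The nearest protein-coding genes, TRIM46 and THBS3, had log2 fold changes of 0.15 and 0.06 (edgeR adjusted p = 0.798 and 0.890).

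The gel-forming mucins lie side by side on the plus strand of chromosome 11, with 21928 bases between them. MUC5B (ENSG00000117983, chr11:1223066-1262172) was at 733, 714 and 925 CPM in Vector and at 1202, 795 and 923 CPM in OE_GPX3. OE_GPX3 1 was the highest and the groups overlapped, with a log2 fold change of 0.30 (SE 0.13, 0.04 to 0.56) and 0.14 (-0.15 to 0.42) after GC correction. MUC5AC (ENSG00000215182, chr11:1157953-1201138) was at 158, 144 and 195 CPM in Vector and at 185, 138 and 151 CPM in OE_GPX3. Its groups overlapped too, and the log2 fold change was -0.07 (-0.31 to 0.17), and -0.19 (-0.43 to 0.05) after GC correction. MUC5AC was above 0 without Vector 3 (0.08) and without OE_GPX3 2 (0.03). Neither gene passed the threshold. Without OE_GPX3 1, the log2 fold change of MUC5B was 0.12.

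Within each library the level of MUC5B relative to MUC5AC separated the groups, although neither gene did so alone. The ratio of their FPKM was 4.37, 4.64 and 4.45 in Vector and 6.10, 5.42 and 5.75 in OE_GPX3, and the lowest OE_GPX3 library lay above the highest Vector library, with 4.48 ± 0.137 against 5.76 ± 0.340 (SD, n = 3 each). The difference between the log2 fold changes of the genes was 0.37, and 0.33 after GC correction, with a range of 0.32 to 0.41 over the settings tried. A library's scaling factor acts on both genes alike, so settings that change the scaling alone could hardly move this difference. Its narrow range is therefore partly fixed in advance. The ratio was singled out after the values were seen, from 3 ratios computed, and carries no test. How many other gene pairs separate the groups in this way was not computed. For the other 2 ratios the groups overlapped, with 2.03 to 2.42 against 1.88 to 2.49 for FOXA2 to FOXA1 and 5.93 to 8.30 against 5.44 to 7.29 for MUC5B to MUC1. The genes share 66 of their 50-base stretches, 0.379% of those of MUC5AC and 0.369% of those of MUC5B. Stretches that recur within the same gene make up 21.4% of MUC5AC and 29.2% of MUC5B, and no source used here says how reads in repeats were counted.

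**Figure D4:**
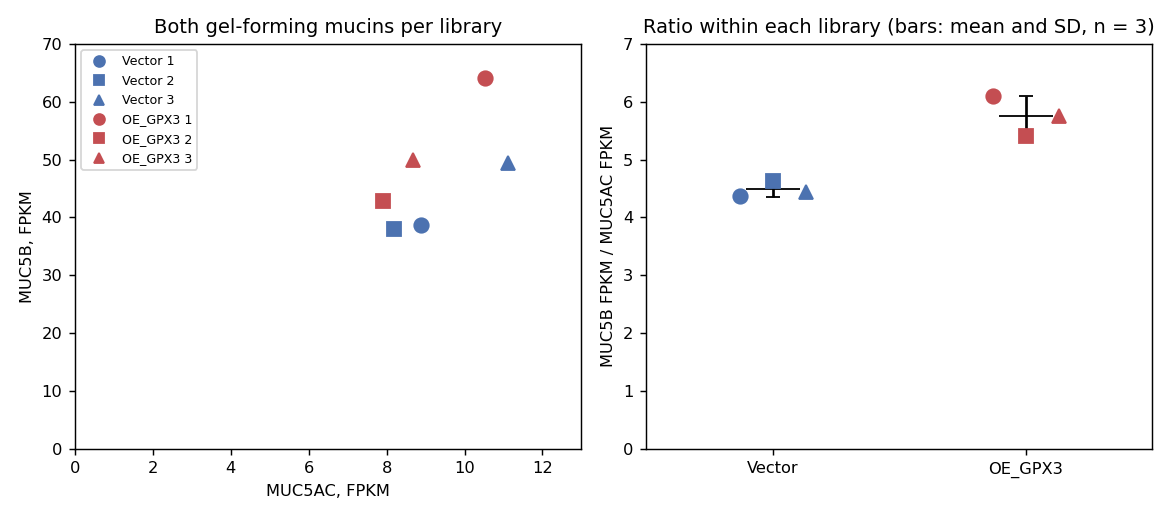
Left, FPKM of MUC5B (vertical) against MUC5AC (horizontal) in each library; right, their ratio per library, with the mean and SD of 3 libraries as bars. The ratio is 4.37 to 4.64 in Vector and 5.42 to 6.10 in OE_GPX3.

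The neighbours of the mucin pair did not pass the threshold. MUC2, an intestinal gel-forming mucin 47442 bases before MUC5AC, had 11 to 22 counts in Vector and 5 to 13 in OE_GPX3, and its log2 fold change was -0.80 (edgeR adjusted p = 0.432), and -0.94 after GC correction. TOLLIP, 12199 bases beyond MUC5B, had a log2 fold change of 0.28 (edgeR adjusted p = 0.254). MUC6, a gastric mucin of the same cluster, had 10 counts over all libraries. Of 16 other mucin genes 5 were tested, 2 were above 0 and 3 below, and 0 passed the threshold, with a median log2 fold change of -0.05 against -0.02 over all genes. MUC13, a membrane mucin of the gut, was the highest of them at 66.8 ± 2.66 CPM in Vector and 63.1 ± 14.0 CPM in OE_GPX3 (SD, n = 3 each). MUC3A had the largest difference above 0 among them, at 3.52 ± 0.689 CPM against 5.84 ± 0.975 CPM (SD, n = 3 each), with a log2 fold change of 0.74 (edgeR adjusted p = 0.120), and 0.71 after GC correction.

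Genes of the cell types and pathways around the members were followed in 12 lists. Together they name 253 genes, of which 157 were tested. In edgeR 0 of the 157 passed the threshold, 32 had an unadjusted p under 0.05 (20.4%, against 14.6% of all genes), and DESeq2 called 1, VIL1. The lists, like the members, were chosen with earlier results of these data known. Nothing is therefore read from this share or from the list counts below. Over all tested genes 6857 of 14458 (47.4%) lay above 0. In the lists below, a value in parentheses after a log2 fold change or a median is the same value after GC correction. Among mucous secretory genes 15 of 20 tested lay above 0, with a median log2 fold change of 0.12 (0.14). AGR2, a disulfide isomerase of mucin folding, was at 53.9 FPKM in Vector and 61.4 FPKM in OE_GPX3, a log2 fold change of 0.17 (0.31). GCNT3, which branches mucin glycans, had 0.06 (0.14). FCGBP, a mucus component, had 0.30 (0.14), CREB3L1 had 0.53 (0.38) and BPIFB1 had 0.47 (0.45), each with an edgeR adjusted p of at least 0.184.

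In the club and serous list 5 of 7 tested genes lay above 0, with a median of 0.17 (0.15). SLPI, a protease inhibitor of airway fluid, was the most abundant at 165 and 188 FPKM in Vector and OE_GPX3. LCN2, an iron-siderophore binding protein, had a log2 fold change of 0.09 (-0.01). BPIFA1 had 0.66 (0.59) and CYP2F1, with only 74 counts over all libraries, 0.88 (0.79), neither past the threshold. SCGB1A1, SCGB3A1 and SCGB3A2, the secretoglobins that define club cells, had 0 counts in all libraries. In the alveolar type 2 list 7 of 13 lay above 0, with a median of 0.05 (0.10). Of the surfactant genes beside SFTPB, SFTPA1, SFTPA2 and SFTPC had 0, 2 and 9 counts over all libraries, while SFTPD was at 4.24 and 5.42 FPKM. ABCA3, the lipid transporter of lamellar bodies, was at 16.5 and 19.7 FPKM. CEBPA had a log2 fold change of 0.46 (0.28) and ETV5 of -0.37 (-0.33). The alveolar type 1 list lay below 0 in 6 of 8 genes, with a median of -0.10 (-0.14). Among them were the caveolins CAV1 at -0.32 (-0.25) and CAV2 at -0.34 (-0.18), while GPRC5A had 0.24 (0.24).

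Basal genes lay above 0 in 4 of 7, with a median of 0.11 (0.04). On the log2 fold change scale PITX1 was at 0.24 (0.02), KRT15 at 0.27 (0.18) and ITGA6 at -0.28 (-0.14). Ciliated genes lay above 0 in 4 of 7, with a median of 0.09 (0.12). RSPH1, with only 135 counts over all libraries, was at 0.53 (0.56), CAPS at 0.21 (0.11), CCNO at 0.00 (-0.16) and RFX2 at -0.20 (-0.32). FOXJ1, the master factor of ciliated cells, had 5 counts over all libraries. Gastric and intestinal lineage genes were divided 10 above and 10 below, with a median of 0.04 (0.08). CEACAM6 was the most abundant, at 379 and 416 FPKM, followed by CEACAM5 at 48.6 and 61.9 FPKM. VIL1, which encodes the microvillus protein villin, was at 14.6 ± 0.920 CPM against 20.8 ± 1.88 CPM (SD, n = 3 each), and its log2 fold change was 0.51 before (edgeR adjusted p = 0.0963) and 0.62 after GC correction. ONECUT2, a cut-homeodomain factor with only 150 counts over all libraries, had -1.16 (-0.998). Liver secretory genes lay above 0 in 10 of 14, with a median of 0.17 (0.14). F2 was at 0.51 (0.40), FGA at 0.24 (0.35) and FGG at 0.07 (0.24). TF, with only 91 counts over all libraries, was at 0.94 (1.06). APOB had 0 counts and ALB 16 counts over all libraries.

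**Figure D5:**
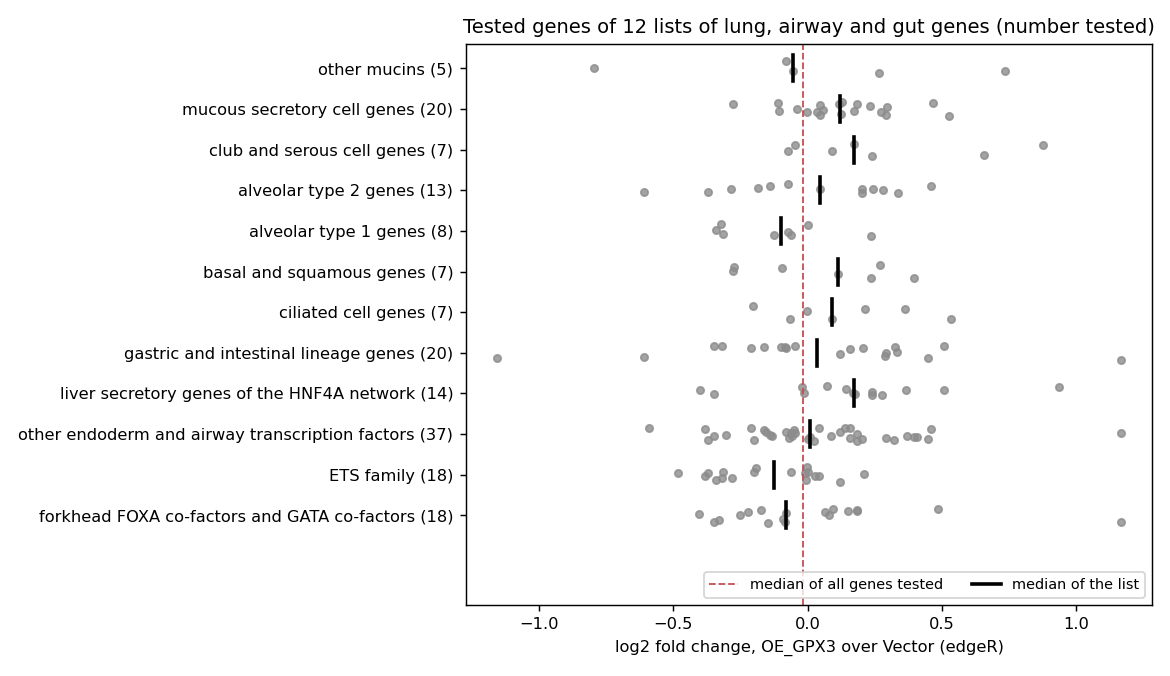
Log2 fold change of OE_GPX3 over Vector from edgeR (horizontal) for each tested gene (grey points) of 12 lists (vertical, with the number tested); black bars are list medians and the dashed line is the median of all genes tested, -0.02. List medians lie between -0.13 and 0.17, and no gene shown passed the threshold.

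Other transcription factors of endoderm and airway lay above 0 in 20 of 37, with a median of 0.01 (-0.04). ID1 and CEBPB were the most abundant, at 451 and 162 FPKM in Vector and 525 and 186 FPKM in OE_GPX3, with log2 fold changes of 0.20 (0.09) and 0.18 (0.00). KLF4 came nearest to the threshold of all list genes, at 30.2 ± 6.17 CPM against 20.1 ± 3.56 CPM (SD, n = 3 each), with a log2 fold change of -0.59 before (edgeR adjusted p = 0.0607) and -0.67 after GC correction. CEBPD had 0.41 (0.20). In the ETS family beside SPDEF, 5 of 18 lay above 0 and 13 below, with a median of -0.13 (-0.10). ERF and ELF3 were the most abundant ETS genes, with log2 fold changes of 0.21 (0.04) and 0.12 (0.04). ETS1 had -0.48 (-0.34), ETV5 -0.37 (-0.33) and ELK3 -0.34 (-0.20). FOXA and GATA co-factors lay above 0 in 8 of 18, with a median of -0.08 (-0.08). TLE5 and LDB1 were among the most abundant, with log2 fold changes of 0.18 (0.08) and 0.06 (-0.07). GATA5, a GATA-family transcription factor rather than a co-factor, had 1.17 (1.02) on only 85 counts over all libraries. LMO4 had -0.40 (-0.29) and NCOA1 -0.33 (-0.22).

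The library patterns of the members were not alike. OE_GPX3 1 was the highest library for FOXA1, GATA6, HNF4A, MUC1 and MUC5B, and Vector 2 was the lowest for SPDEF, FOXA1, MUC1 and MUC5B. Likeness to every other protein-coding gene of at least 5 CPM was measured as the root-mean-square difference of log2 CPM, each gene centred on its mean of the 6 libraries, over 9980 candidates. Libraries and their depth are shared by all genes, so this is a description. The nearest genes to SPDEF were LRRC3 (0.0419), MMACHC (0.0643) and CLDN2 (0.0679), with a median of 0.305 over all candidates. Among members HNF4A came closest to SPDEF, in place 296 (0.149), followed by MUC1 in place 861.

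GLDC (0.0458), ENGASE and PCSK6 were nearest to HNF4A, and FAM171A2 (0.0579), CEBPD and CST1 to MUC1. METRNL (0.0520), TP53INP2 and LRRN2 were nearest to MUC5B, where HNF4A came in place 203, before MUC5AC in place 687. CACNG7 (0.0568), LRP1 and GATA2 were nearest to MUC5AC, and FOXA1 came in place 119. CBFB (0.0290), FAM120B and MBTPS1 were nearest to FOXA1, and TNRC18 (0.0324), MICALL1 and ABHD4 to FOXA2. PARP4 (0.0534), C2CD2 and CNOT6L were nearest to GATA6.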

How the data were processed

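RNA of 6 A549 libraries, 3 per group, was measured; groups were read from titles. The authors deposited whole-number counts per gene and FPKM values; the genome build was hg38, per the submitters' processing notes. For the aligner, the counter and the use of strand no source used here gives an entry. The deposited FPKM equal count per length and per 1 constant in each library, within a relative deviation of 3.32e-13. Those constants deviate from the total counts by -4.52% to 4.90%, so the authors scaled libraries by a method not given.

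Counts were filtered with filterByExpr (minimum count 10, total 15), scaled with TMM and tested with edgeR 4.0.16's robust quasi-likelihood test (R 4.3.3, two-sided, Benjamini-Hochberg over 14458 genes, adjusted p under 0.05). The coefficient of variation between replicates was 0.110. CPM are from edgeR after TMM scaling. Alternatives were other scalings and filters, a replicate block, a per-library loess on gene GC content (span 0.5), DESeq2 1.42.0, limma 3.58.1 on log2(FPKM + 1) or log2(FPKM + 0.1), and leaving out each library. The edgeR script was tested on simulated counts. Members and lists were chosen with earlier results of these data known. Named genes are the members, GPX3, per list the 2 with the highest mean FPKM and the 3 with the smallest p, overlapping and nearest neighbours, and per member the 3 most alike. Markers of other cell types, genes with few or 0 counts, MUC6, ABCA3, SFTPD and the members of a count of 5 or fewer were named after their values were seen. Some genes that the rule names are not reported here.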

Additional observations from a re-analysis of the deposited data

How the results depend on the processing

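The number of genes called was 38 and depended on the setting. It was 68 with total counts alone, 129 with no filter on low counts, 115 in DESeq2 and 4 with GC correction. In limma it was 4 with log2(FPKM + 1), 4 with log2(FPKM + 0.1) and 1 with no filter on FPKM. Leaving out 1 library gave 1 to 657 genes, with 657 without OE_GPX3 1, 116 without Vector 1, 12 without OE_GPX3 3, 4 without Vector 2 and 1 without OE_GPX3 2. The labels number replicates 1 to 3 in both groups. No label says that equal numbers pair, so the numbers were not taken as pairs. Deviations of libraries with the same number correlated at 0.192, 0.0104 and 0.114. Vector 1 and Vector 3 correlated best with the OE_GPX3 library of the same number, and Vector 2 with OE_GPX3 3 (0.0331). These correlations do not settle whether the replicates pair. With the replicate block 231 genes were called, and 63 with GC correction and the replicate block. FOXA1 turned from -0.01 to 0.0060 with DESeq2 size factors, 0.0067 in DESeq2 and 0.0046 to 0.0050 in limma on FPKM, and ranged from -0.088 to 0.045 when 1 library was left out. GATA6 ranged from -0.37 to 0.018 (without OE_GPX3 3) and MUC5AC from -0.20 to 0.076 (without Vector 3) when 1 library was left out, and MUC5AC was at 0.028 without OE_GPX3 2. FOXA2, HNF4A, MUC1, MUC5B and SPDEF kept their direction in all 19 alternatives, though not their size, with FOXA2 between -0.24 and -0.02. Of the list genes, which gave 0 calls, 6 were called with the replicate block, among them VIL1, CAV1 and CAV2, and 12 without OE_GPX3 1, among them KLF4 and MUC16. NKX2-1 and SFTPB are limited by depth.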
